A study of Homo sapiens with 4 samples.

Results

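Dihydroberberine was set directly against sunitinib in A549, a long-established line of human lung adenocarcinoma cells, by taking the gene signals of the array from cells given 25 μmol/L dihydroberberine for 48 h minus those of the array from cells given 2 μmol/L sunitinib for 48 h. Cells given both agents at these doses and untreated cells, each also on 1 array at 48 h, served only to place the levels of the compared pair. For each gene the brightest probe set, by its mean over the 4 arrays, stood for the gene, and a gene was kept where at least 1 array of the pair reached a floor of log2 6.75, the median of all gene probe sets. This left 10821 of 18132 genes, of which 10145 reached the floor on both arrays. Each condition had 1 array, so no test, standard deviation or p-value could be given, and "higher" and "lower" compare 2 arrays by size alone. Size was counted at 2-fold and at 1.5-fold. The doses of the agents differ and neither was given at a second dose or time, so a difference belongs to these doses at 48 h.

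Dihydroberberine is a hydrogenated form of berberine, a plant alkaloid known as an activator of AMP-activated protein kinase and an inhibitor of respiratory complex I. Sunitinib competes with ATP on receptor tyrosine kinases such as those for VEGF, PDGF and stem cell factor. Signals from such receptors run through RAS and the kinase ERK to immediate early genes, whose products include the AP-1 subunits and the phosphatases that switch ERK off again. The thioredoxin-interacting protein TXNIP is controlled separately, by the glucose-sensing factor MondoA with its partner MLX, and it restrains glucose uptake.

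The gene signals of the pair correlated with r = 0.986 across gene probe sets, and the 4 arrays correlated with each other at 0.986 to 0.994. Keratins marked the line on the arrays, with KRT18 at 14.39 on the dihydroberberine array and 14.36 on the sunitinib array, and so did AKR1B10 at 14.30 and 14.67. The epithelial markers EPCAM and CDH1 lay under the floor on all 4 arrays, as did all 5 lymphocyte markers present and 5 of 7 fibroblast and muscle markers. Of 5 endothelial markers 3 did so too. VWF reached the floor on both arrays of the pair, at 7.50 with dihydroberberine and 7.39 with sunitinib, and KDR at 6.78 and 6.92. Both red blood cell markers present also reached it, HBB at 8.26 and 8.27 and ALAS2 at 6.91 and 6.87. Of 6 macrophage markers CD68 reached the floor on both arrays of the pair, at 8.42 with dihydroberberine and 7.33 with sunitinib. CD14 was at 6.75 and 6.27 on the pair, 5.76 on the combination array and 8.82 on the untreated array. The muscle actin gene ACTA2 was at 9.39 with dihydroberberine and 8.49 with sunitinib, and DES, another muscle gene, at 7.90 and 7.63. The part of such markers in the results was not tested. Background control probes that hold 15 to 25 G or C letters gave median signals of 7.15, 6.99, 6.95 and 6.70 on the dihydroberberine, sunitinib, combination and untreated arrays, so signals near the floor may be background. TXNIP, GPAM, OLFM1, RC3H1, ZMAT3, MTF1 and SNAI2, all among the lower genes, read under 7.15 with dihydroberberine, so their folds are ratios of the printed signals and their low side was not distinguishable from background. Folds printed below with "at least" are bounds against the floor of 6.75, which lies under both medians of the pair. They are therefore not bounds against background. CYP1A1, NFKBIZ and EGLN3, which have such folds, read under the background median on both arrays of the pair.

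Of the 10821 genes, 162 (1.5%) were at least 2-fold higher with dihydroberberine than with sunitinib and 310 (2.86%) were at least 2-fold lower. At 1.5-fold these numbers were 581 (5.37%) and 1025 (9.47%). At any size 5385 genes (49.8%) were higher, the share to set beside the counts of higher and lower genes in each list below. The median difference over all genes was -0.001 on the log2 scale, with quartiles of -0.25 and 0.21, so the arrays were centred on each other. On the printed signals, with those under the floor not raised to it, 4-fold was reached by 23 genes on the higher side and by 13 on the lower side. Among these AXL, STON1, MYPN and MAFF, on the higher side, were under 4-fold as bounds against the floor. So were ARRDC4 and PIGW on the lower side. The genes just inside the 2-fold size differed by 1.0001 to 1.0102 on the log2 scale on the higher side, and those just outside by 0.993 to 0.999. On the lower side these sizes were 1.002 to 1.007 inside and 0.9977 to 0.9998 outside.

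The lower genes were less uniform over their probe sets. Of the 192 lower genes with 2 or more probe sets at the floor, 145 had all of them on the lower side and 52 had all of them at least 2-fold lower. Of the 100 higher genes with 2 or more probe sets, 94 had all of them on the higher side and 56 had all at least 2-fold higher. The spread between the highest and the lowest probe set difference had a median of 0.73 for lower genes and 0.46 for higher genes. Over all 6255 genes with 2 or more probe sets at the floor, the median SD between probe sets was 0.140. The array given dihydroberberine also had the lowest signals for repeated and ribosomal sequence: the Alu control read 14.42, against 14.86 with sunitinib, 14.86 with the combination and 14.82 untreated, and the 18S ribosomal RNA control averaged 13.73, 14.12, 14.15 and 14.36 in the same order. By mean difference other controls were level or higher with dihydroberberine than with sunitinib. The size was 0.01 for GAPDH, 0.14 and 0.37 for the 3′ and 5′ ACTB probes and 0.17 for the hybridisation spikes. The labelling spikes were 0.08 higher by mean difference, but their median signal was lower, at 8.10 with dihydroberberine and 8.23 with sunitinib. The part of these differences in the lower gene count was not tested.

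**Figure D1:**
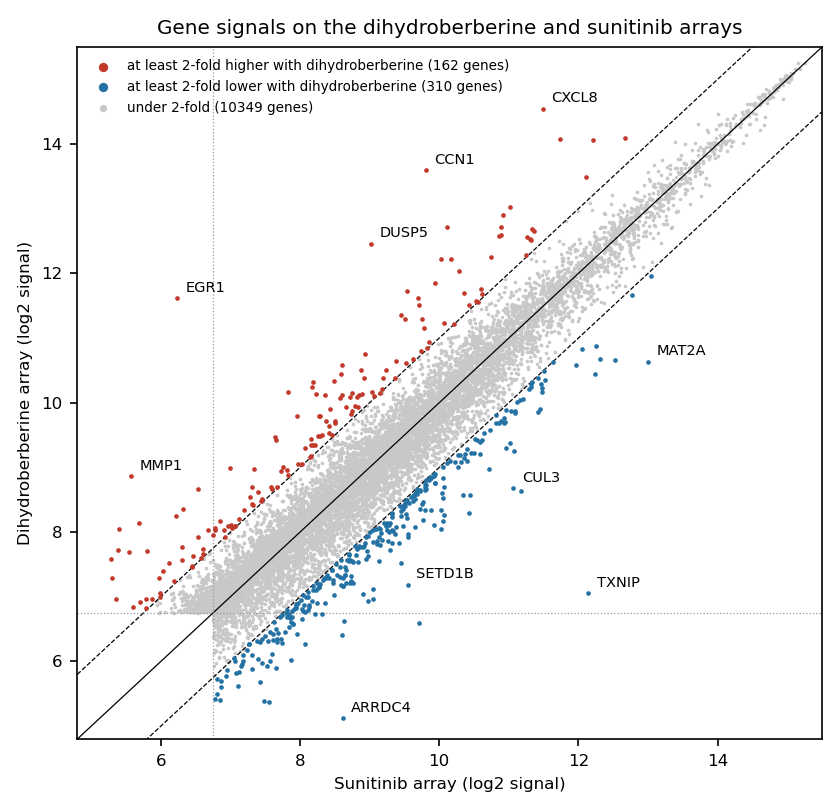
Each point is 1 of 10821 genes, with its log2 signal on the sunitinib array on the x axis and on the dihydroberberine array on the y axis. The solid line marks equal signals, the dashed lines 2-fold and the dotted lines the floor of 6.75; EGR1 and TXNIP lie farthest from the solid line, on opposite sides.

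The genes of the ERK and immediate early response held the highest differences of the comparison. EGR1, a growth-factor-induced zinc finger regulator, had a signal of 11.62 with dihydroberberine, 6.23 with sunitinib, 8.20 with the combination and 6.68 untreated. Only the dihydroberberine and combination arrays lay above the floor, and EGR1 was at least 29.1-fold higher with dihydroberberine than with sunitinib. Its 6 probe sets at the floor were all higher, by 1.08 to 5.85, and averaging its probe sets gave 14.1-fold. FOSL1, an AP-1 subunit, was at 10.24 with dihydroberberine, 8.17 with sunitinib, 9.31 with the combination and 7.79 untreated. That is 4.2-fold higher, with 6 probe sets between 0.40 and 2.17 and 2.63-fold as their average. JUN, the central AP-1 subunit, was at 9.47, 7.64, 8.29 and 7.77 on the same arrays, 3.57-fold higher. MAFF, a small MAF factor, was at 7.72 with dihydroberberine and 5.39 with sunitinib, which is at least 1.95-fold higher. Within the list of AP-1 and immediate early factors 13 of 17 measured genes were higher, 4 by at least 2-fold, and the median difference was 0.62, or 0.49 over genes with both arrays at the floor and 0.35 with dim genes included, against -0.001 for all genes. The single member at least 2-fold lower was IER5, at 8.67 with dihydroberberine and 9.68 with sunitinib, and it too was under 2-fold, at 1.80-fold, with probe sets averaged.

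Phosphatases that act on MAP kinases stood high in the same direction. DUSP5, which dephosphorylates nuclear ERK, had signals of 12.46 with dihydroberberine, 9.02 with sunitinib, 10.78 with the combination and 9.66 untreated, a 10.8-fold difference in the pair. DUSP1, an immediate early phosphatase of several MAP kinases, was at 14.08, 11.73, 12.96 and 12.20, which is 5.1-fold higher, or 7.79-fold with probe sets averaged. DUSP6, the cytoplasmic ERK phosphatase, was at 13.03, 11.01, 11.94 and 11.56, or 4.04-fold higher. For all 3 phosphatases the untreated level lay between the pair, nearer to sunitinib. SPRY2, a Sprouty inhibitor of receptor signalling, was 2.28-fold higher with dihydroberberine. DUSP4 was 1.99-fold higher, just short of the 2-fold size. The list of these phosphatases and Sprouty proteins was not uniform: 8 of 14 measured genes were higher and 6 lower, and its median was 0.18, or 0.76 when probe sets were averaged per gene and 0.02 with dim genes included.

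Other transcripts that follow ERK were split. IER3, an immediate early regulator of survival, was at 12.23 with dihydroberberine, 10.03 with sunitinib, 11.11 with the combination and 10.69 untreated, 4.58-fold higher. PHLDA1, a pleckstrin homology protein induced by growth factors, was 3.97-fold higher, with 4 probe sets between 0.90 and 1.99, and 1.90-fold by their median. The receptor kinase genes EPHA2 and EPHA4 were 2.19-fold and 2.02-fold higher, and EPHA4 was 1.91-fold with probe sets averaged. CCND1, the cyclin that drives entry into S phase, went the other way, at 10.04 with dihydroberberine, 11.16 with sunitinib, 11.38 with the combination and 10.66 untreated, and was 2.17-fold lower, or 1.82-fold with probe sets averaged. Of 9 measured genes of this list 6 were higher, 4 by at least 2-fold, with a median of 0.54. GADD45B, a stress-induced partner of MAP kinase kinase kinases that belongs to no list here, was at 12.72, 10.11, 10.78 and 10.35, 6.11-fold higher, with 4 probe sets between 1.29 and 3.07.

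The promoters of 3 of these genes show the elements through which immediate early genes and inflammatory genes are classically controlled. The sequences are the 250 bases before the gene start, from RefSeq on build GRCh38.p14, read 5′ to 3′ on the gene's strand, with the element in capitals. EGR1 (chr5:138465229-138465478, plus strand) holds 2 CArG boxes, the binding element of serum response factor, starting 105 and 83 bases upstream. DUSP1 (chr5:172771196-172771445, minus strand) holds the cyclic AMP response element TGACGTCA 125 bases upstream. CXCL8 (chr4:73740319-73740568, plus strand) holds the AP-1 site TGACTCA 137 bases upstream.
EGR1: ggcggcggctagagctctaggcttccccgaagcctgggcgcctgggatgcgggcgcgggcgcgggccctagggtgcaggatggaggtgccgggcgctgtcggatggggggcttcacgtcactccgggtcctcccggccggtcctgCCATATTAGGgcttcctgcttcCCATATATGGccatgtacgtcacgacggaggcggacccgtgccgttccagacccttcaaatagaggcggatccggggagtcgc
DUSP1: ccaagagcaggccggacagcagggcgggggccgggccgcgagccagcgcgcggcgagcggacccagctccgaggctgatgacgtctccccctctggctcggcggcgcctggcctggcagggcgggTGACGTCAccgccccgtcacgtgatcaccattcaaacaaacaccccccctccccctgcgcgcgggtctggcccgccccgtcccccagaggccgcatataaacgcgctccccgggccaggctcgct
CXCL8: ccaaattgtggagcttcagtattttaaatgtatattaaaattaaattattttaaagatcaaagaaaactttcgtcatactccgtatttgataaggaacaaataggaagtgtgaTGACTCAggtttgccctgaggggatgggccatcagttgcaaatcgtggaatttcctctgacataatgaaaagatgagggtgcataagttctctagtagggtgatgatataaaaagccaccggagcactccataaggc
Searched on both strands of 35116 promoter windows of the same table, a CArG box was found in 1.16%, an AP-1 site in 4.2% and a cyclic AMP response element in 1.65%. Among 20 genes named for their high differences 11 had a window, and each of these 3 elements occurred in 1 of the 11, in the gene shown. Among 20 genes named for their low differences 17 had a window, and an AP-1 site occurred in EIF5 and ARRDC4 and neither other element in any. The core of the dioxin response element, GCGTG, was found in 32.2% of all windows, in 4 of the 11 and in 9 of the 17. The percentages are per window, while a gene was counted where any of its windows matched. Several genes have more than 1 window, up to 5 for HDAC4, so these counts and percentages are not in like units. The 3 genes printed were set together with their elements, so their matches were not a test. A match is a description of these letters and does not show that a factor binds there.

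**Figure D2:**
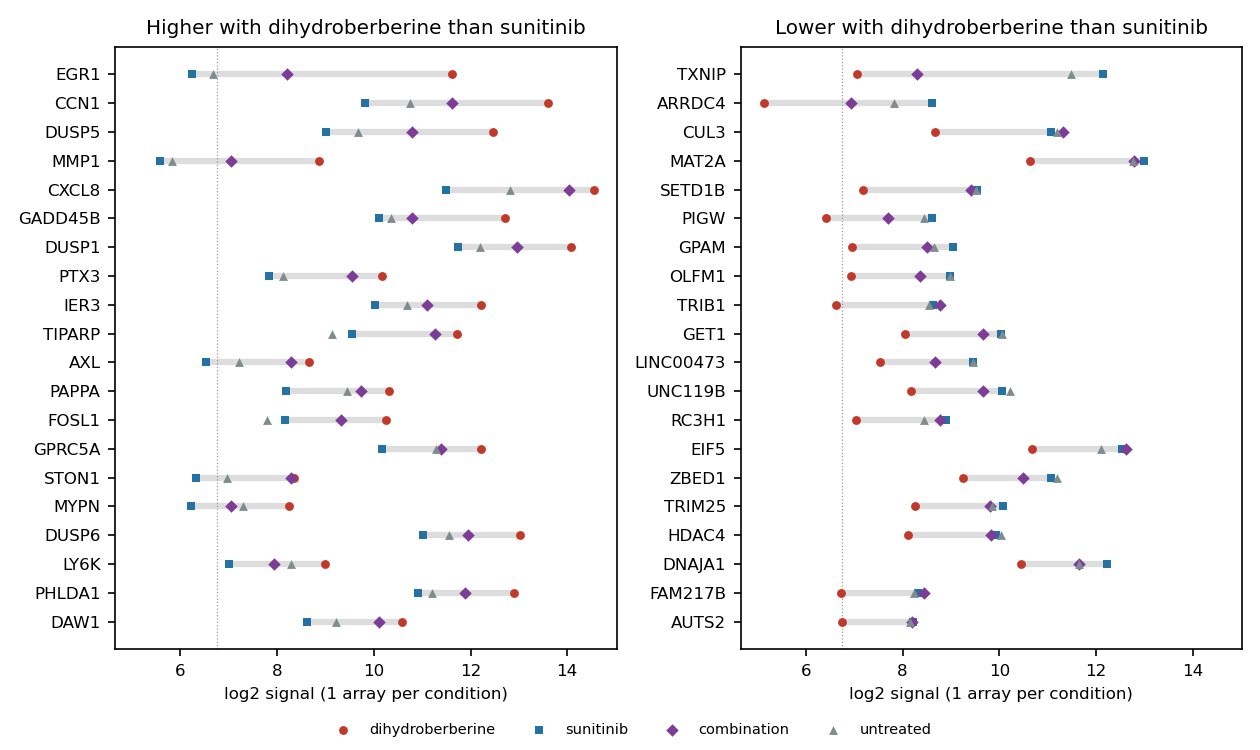
Log2 signals (x axis) on the 4 arrays for the 20 genes named as highest (left) and the 20 named as lowest (right) in the comparison; each symbol is 1 array, the grey bar spans the compared pair and the dotted line is the floor of 6.75. For most genes on the right the sunitinib, combination and untreated symbols sit together and dihydroberberine stands apart, while on the left the combination sits inside the bar.

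Transcripts of several secreted inflammatory proteins were higher with dihydroberberine. CXCL8, the neutrophil chemokine interleukin 8, had signals of 14.55 with dihydroberberine, 11.49 with sunitinib, 14.04 with the combination and 12.83 untreated. It was 8.32-fold higher in the pair, or 16.7-fold by the median of its 3 probe sets, which lay between 3.06 and 4.10, with untreated cells between them and the combination near dihydroberberine. PTX3, a long pentraxin of innate immunity, was at 10.17, 7.83, 9.55 and 8.12, a 5.07-fold difference. IL1A, interleukin 1 alpha, was at 8.97, 7.33, 8.81 and 6.95, which is 3.11-fold higher. IL6 had another order over the arrays, with 11.51 with dihydroberberine, 9.70 with sunitinib, 9.48 with the combination and 11.10 untreated. Both arrays that received sunitinib were low in IL6, which was 3.5-fold higher with dihydroberberine, though its 2 probe sets differed, at 0.36 and 1.81. CXCL2, another neutrophil chemokine, was 2.22-fold higher. Of 15 measured cytokine and chemokine genes 12 were higher, 6 by at least 2-fold, and none was 1.5-fold lower, with a median of 0.77, or 0.26 with dim genes included.

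Genes of NF-kB and of prostaglandin synthesis shifted less. TNFAIP3, a ubiquitin-editing inhibitor of NF-kB, was at 11.68 with dihydroberberine, 10.61 with sunitinib, 11.02 with the combination and 11.24 untreated, 2.1-fold higher. BCL3, a nuclear IkB protein, was 1.77-fold higher. NFKBIZ, another nuclear IkB protein, was at 5.77 with dihydroberberine and 6.93 with sunitinib, at least 1.13-fold lower. Of the 12 measured genes of NF-kB subunits and inhibitors 9 were higher, with a median of 0.34. PTGER4, a receptor for prostaglandin E, was at 9.80, 8.27, 9.20 and 9.46, 2.88-fold higher in the pair, or 1.93-fold with probe sets averaged. The synthase gene PTGES and the phospholipase gene PLA2G4A, which supplies arachidonic acid, were 1.73-fold and 1.68-fold higher. The prostaglandin list had 4 of 6 measured genes higher and a median of 0.38, or 0.01 with dim genes included.

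Proteases that act outside the cell had a list median of 1.02 over 8 measured genes, the highest of the 42 lists with this filter. The median was 0.54 over genes with both arrays at the floor and 0.30 with dim genes included, below other lists in both cases. MMP1, the interstitial collagenase, had signals of 8.87 with dihydroberberine, 5.57 with sunitinib, 7.05 with the combination and 5.83 untreated. Sunitinib and untreated cells lay under the floor, and MMP1 was at least 4.34-fold higher with dihydroberberine than with sunitinib. PLAU, the urokinase-type plasminogen activator, was at 11.85, 9.94, 11.42 and 10.95, a 3.74-fold difference. Its receptor gene PLAUR was at 10.75, 8.93, 9.88 and 9.63, or 3.54-fold higher, with 5 probe sets between 1.01 and 2.15. PLAT, the tissue-type activator, was 2.82-fold higher over 7 probe sets between 0.86 and 1.80. The protease inhibitor gene TIMP1 was 1.45-fold higher. PAPPA, a metalloproteinase that cleaves IGF-binding proteins and was in no list, was at 10.32, 8.19, 9.73 and 9.45, 4.37-fold higher, with all 7 probe sets between 1.61 and 2.49.

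Matricellular genes that YAP and TEAD control were high beside them. CCN1 had signals of 13.60 with dihydroberberine, 9.81 with sunitinib, 11.62 with the combination and 10.76 untreated. At 13.8-fold it was the highest gene with both arrays above the floor, and its 2 probe sets gave 3.79 and 3.83. CCN2, connective tissue growth factor, was at 14.07, 12.21, 13.50 and 12.87, 3.62-fold higher, or 6.21-fold by the median of its 3 probe sets. AXL, a receptor tyrosine kinase for GAS6, was at 8.67, 6.53, 8.30 and 7.21, at least 3.78-fold higher, though 2.17-fold with probe sets averaged. The other measured genes of the list did not follow as a group. AJUBA, a LIM protein, was 1.87-fold lower and F3, tissue factor, 1.75-fold lower. In all 8 of 13 measured YAP-TEAD genes were higher, 3 by at least 2-fold, with a median of 0.40 that became 0.01 over the genes with both arrays at the floor. Among 18 measured collagens, laminins and integrins only LAMB1, a laminin beta chain, reached 2-fold, at 11.56 with dihydroberberine and 10.56 with sunitinib, and the median was 0.17, and LAMB1 was 1.91-fold with probe sets averaged. SNAI2, a repressor of epithelial genes, was 2.38-fold lower and was the only 1 of 13 measured epithelial and mesenchymal genes past 2-fold.

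The receptors that sunitinib is known to bind were mostly dim. Of 9 such genes on the array 4 were measured, FLT4, PDGFRB, KDR and CSF1R, and none differed by 1.5-fold. FLT4 had the highest signal, at 8.19 with dihydroberberine and 8.04 with sunitinib. Apart from AXL and EPHA2, none of the 11 measured genes in the list of other receptor tyrosine kinases reached 1.5-fold. EPHA4, given above, was not in that list. NRG1, which encodes the ERBB ligand neuregulin 1, was at 9.53 with dihydroberberine, 8.42 with sunitinib, 8.04 with the combination and 9.80 untreated. The 2 arrays that received sunitinib were the low ones, and NRG1 was 2.16-fold higher in the pair, with 5 probe sets between 0.68 and 1.39, and 1.63-fold higher with probe sets averaged. The other 4 measured ERBB ligands stayed under 2-fold.

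Targets of the aryl hydrocarbon receptor, a sensor of planar aromatic ligands, were led by TIPARP, an ADP-ribosyltransferase of this pathway. TIPARP was at 11.72 with dihydroberberine, 9.54 with sunitinib, 11.26 with the combination and 9.13 untreated. Both arrays that received dihydroberberine were high, and the difference in the pair was 4.54-fold. CYP1A1, the classical target enzyme, was at 7.03, 6.37, 6.99 and 6.19, at least 1.21-fold higher and close to the floor on every array. AHRR, the repressor of the receptor, was at 6.42 with dihydroberberine and 7.30 with sunitinib, with probe sets at -0.88 and 0.16. Of 9 measured genes 6 were higher, 1 by at least 2-fold, and 3 were lower, 1 by at least 2-fold. The latter was the amino acid transporter gene SLC7A5, 2.32-fold lower, or 1.61-fold with probe sets averaged. The median of the list was 0.45, or 0.28 with values under the floor raised to it.

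Stress genes divided. GDF15, a secreted stress cytokine, was at 12.58 with dihydroberberine, 10.87 with sunitinib, 12.12 with the combination and 10.49 untreated, 3.28-fold higher. DDIT3, the factor CHOP of the endoplasmic reticulum stress response, was 2.33-fold higher. NUPR1, a small nuclear protein induced by stress, was at 8.35, 9.89, 9.81 and 6.67, 2.92-fold lower. NUPR1 was lowest in untreated cells and high on both arrays that received sunitinib. SLC7A5, the large neutral amino acid transporter, and ATF5, a factor related to ATF4, were 2.32-fold and 2.24-fold lower, or 1.61-fold and 1.56-fold with probe sets averaged. The ATF4 list thus had 10 of 20 measured genes higher and 10 lower, and a median of -0.01. None of 23 measured endoplasmic reticulum chaperone and degradation genes reached 1.5-fold, with a median of 0.16. Among 19 measured p53 targets ZMAT3, an RNA-binding protein, was 2.16-fold lower and GADD45A 1.74-fold higher, with a median of 0.03.

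Secreted factors led the list of hypoxia and glycolysis genes. ADM, the vasodilator peptide adrenomedullin, was at 11.36 with dihydroberberine, 9.45 with sunitinib, 9.69 with the combination and 10.41 untreated, 3.74-fold higher. ANGPTL4, an inhibitor of lipoprotein lipase, was at 10.13, 8.23, 8.97 and 9.43, 3.73-fold higher. NDRG1 was 2.43-fold higher, though its 4 probe sets ran between 0.08 and 1.28 and gave 1.51-fold when averaged. Of the 27 measured genes 12 were higher and 15 lower, and the median was -0.04. The prolyl hydroxylase gene EGLN3 was at 5.70 with dihydroberberine and 6.86 with sunitinib, at least 1.08-fold lower.

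The lowest gene of the comparison was TXNIP. It had signals of 7.06 with dihydroberberine, 12.14 with sunitinib, 8.30 with the combination and 11.49 untreated. Both arrays that received dihydroberberine were low and sunitinib was the highest of the 4. On these signals TXNIP was 33.9-fold lower in the pair, although 7.06 lay under the background median of 7.15. Its 5 probe sets lay between -5.08 and -3.06, and their average gave 19.3-fold. ARRDC4, an alpha-arrestin under the same control, was at 5.12, 8.62, 6.93 and 7.82, at least 3.64-fold lower. MLXIP, which encodes MondoA, was at 8.07, 9.65, 9.55 and 9.86, 2.99-fold lower, with dihydroberberine alone standing apart, and 1.62-fold lower with probe sets averaged. Its partner gene MLX was 1.37-fold higher. ARRDC3, an alpha-arrestin of the same family, was at 9.87, 9.11, 9.13 and 8.59, 1.7-fold higher. The list of alpha-arrestins and MondoA targets therefore held the lowest gene of all together with 4 of 9 higher ones. Its median was -0.07, or -0.99 without the probe sets named _x_at or _s_at.

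The promoter of TXNIP (chr1:145996580-145996829, minus strand, GRCh38.p14, RefSeq) holds the carbohydrate response element through which MondoA and MLX act, shown in capitals 88 bases upstream of the gene start.
TXNIP: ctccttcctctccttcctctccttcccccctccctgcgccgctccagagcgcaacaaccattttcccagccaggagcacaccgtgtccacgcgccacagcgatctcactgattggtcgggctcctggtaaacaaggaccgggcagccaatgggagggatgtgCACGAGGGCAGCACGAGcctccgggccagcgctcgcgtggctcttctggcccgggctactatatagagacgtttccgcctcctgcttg
The element was written as CACGNG repeated after 5 bases of any kind and searched on both strands. It was found in 0.0456% of the 35116 promoter windows. Among the named highest and lowest genes with a window only TXNIP held it, and ARRDC4 did not. The pattern and TXNIP as the gene to print were set together. The match is therefore a description of the letters, and control by MondoA was not tested.

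Genes of lipid synthesis lay on the lower side. GPAM, the acyltransferase that starts triacylglycerol synthesis in mitochondria, had signals of 6.96 with dihydroberberine, 9.05 with sunitinib, 8.50 with the combination and 8.66 untreated. On the probe set used it was 4.24-fold lower, from a signal under the background median, and 2.31-fold with probe sets averaged. ELOVL6, a fatty acid elongase, was at 8.04, 9.32, 8.74 and 9.47, 2.44-fold lower. FADS2, the delta-6 desaturase, was at 8.36, 9.48, 8.59 and 10.32, 2.17-fold lower, or 1.89-fold with probe sets averaged, and both arrays that received dihydroberberine were the low ones. SCD, the stearoyl-CoA desaturase, was 2.12-fold lower at high signals, 11.96 with dihydroberberine and 13.05 with sunitinib, or 1.82-fold with probe sets averaged. The fatty acid list had 11 of 16 measured genes lower, 4 by at least 2-fold, and a median of -0.29. INSIG1, a brake on SREBP activation, was at 8.52, 10.06, 8.89 and 10.65, 2.9-fold lower, with 3 probe sets between -1.53 and -0.45 and 1.37-fold once those named _x_at or _s_at were set aside. The enzymes SQLE, HMGCS1 and IDI1 of the cholesterol pathway were 1.86-fold, 1.82-fold and 1.71-fold lower. Of 19 measured cholesterol genes 14 were lower, 1 by at least 2-fold, and the median was -0.35.

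Genes of DNA replication were lower in number more than in size. Of 41 measured genes 37 were lower, 8 by at least 1.5-fold and 2 by at least 2-fold, and the median was -0.31. FEN1, the flap endonuclease of lagging strand synthesis, had signals of 9.84 with dihydroberberine, 11.08 with sunitinib, 10.34 with the combination and 11.30 untreated, 2.36-fold lower. CCNE2, cyclin E2, was at 6.11, 7.60, 7.0 and 7.50, at least 1.8-fold lower. GINS1, a subunit of the replicative helicase, was 1.93-fold lower. The median level of the list was 9.94 with dihydroberberine, 10.67 with sunitinib, 10.20 with the combination and 10.68 untreated, so the pair of arrays that received dihydroberberine were the lower ones. Genes of mitosis moved less, with 28 of 33 lower, 2 at 1.5-fold, none at 2-fold and a median of -0.18. Their median level was 10.19, 10.28, 10.03 and 10.71 in the same order, with untreated cells highest. The kinesin gene KIF11 was 1.9-fold and the factor gene FOXM1 1.71-fold lower.

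A set of lower genes stood apart on the dihydroberberine array. CUL3, the scaffold of ubiquitin ligases that with KEAP1 marks NRF2 for degradation, had signals of 8.68 with dihydroberberine, 11.07 with sunitinib, 11.31 with the combination and 11.20 untreated. It was 5.24-fold lower over 3 probe sets between -2.82 and -1.76. MAT2A, the enzyme that makes S-adenosylmethionine, was at 10.64, 13.00, 12.78 and 12.77, 5.15-fold lower, with 6 probe sets between -2.48 and -1.38 and 2.85-fold by their median. SETD1B, a histone H3 lysine 4 methyltransferase that uses S-adenosylmethionine, was at 7.19, 9.54, 9.42 and 9.51, 5.12-fold lower on its 1 probe set. The 7.19 with dihydroberberine lay close to that array's background median of 7.15. For all 3 the combination lay near sunitinib and untreated cells. Lysine methyltransferases and demethylases as a list had 26 of 32 measured genes lower, 7 by at least 1.5-fold, and a median of -0.28, with SETD1B the single member past 2-fold. SETD7, a lysine 4 methyltransferase, was 1.79-fold lower and SETD5, a SET domain protein, 1.73-fold lower.

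Further genes named as lowest also had their lowest signal of the 4 arrays with dihydroberberine, while the combination lay near sunitinib in some and between the pair in others, as in LINC00473, ZBED1 and PIGW at 8.67, 10.50 and 7.70. GET1, a receptor for insertion of tail-anchored proteins, was at 8.05 with dihydroberberine, 10.03 with sunitinib, 9.66 with the combination and 10.05 untreated, 3.94-fold lower, or 2.11-fold with probe sets averaged. HDAC4, a class II histone deacetylase, was at 8.12, 9.92, 9.84 and 10.03, 3.5-fold lower on its 1 probe set at the floor. With probe sets averaged HDAC4 was not among the genes kept. TRIM25, a ubiquitin ligase of antiviral signalling, was at 8.26, 10.07, 9.80 and 9.84, 3.51-fold lower, or 1.71-fold with probe sets averaged, dim ones included. EIF5, a translation initiation factor that promotes GTP hydrolysis by the initiation complex, was 3.63-fold lower, with 6 probe sets between -2.03 and -1.19. RC3H1, the RNA-binding protein roquin 1, was 3.64-fold lower, or 1.98-fold with probe sets averaged. The long non-coding RNA LINC00473 was 3.8-fold lower. OLFM1, a secreted olfactomedin, was 4.1-fold lower on the probe set used, at 6.94 with dihydroberberine and so under the background median, and 2.01-fold lower with probe sets averaged. UNC119B, a lipid-binding trafficking protein, was 3.67-fold lower and ZBED1, a zinc finger factor, 3.52-fold lower. The pseudokinase gene TRIB1 was at 6.63 with dihydroberberine and 8.63 with sunitinib, at least 3.67-fold lower, and PIGW, an enzyme of glycosylphosphatidylinositol anchors, was at least 3.62-fold lower. With probe sets averaged TRIB1 was 2.30-fold lower and FAM217B 1.66-fold. FAM217B and AUTS2 were at least 2.97-fold and 2.74-fold lower, and AUTS2 was not kept with probe sets averaged.

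The list of NRF2 targets, antioxidant genes that A549 cells express at high levels, also holds CUL3, KEAP1 and NFE2L2, which regulate or encode NRF2. Of its 22 measured genes 15 were lower, and of the 19 without these regulators 13 were lower, with a median of -0.17 in both cases. HMOX1, heme oxygenase 1, was at 8.22 with dihydroberberine, 9.54 with sunitinib, 9.28 with the combination and 9.38 untreated, 2.5-fold lower, or 1.95-fold with probe sets averaged. GCLC, the catalytic subunit of glutathione synthesis, was 1.65-fold lower. Cytosolic heat shock genes had 9 of 15 lower and a median of -0.27, led by DNAJA1, a co-chaperone of HSP70, at 10.45, 12.23, 11.64 and 11.66, 3.44-fold lower, or 2.12-fold by the median of its 5 probe sets. HSPB8, a small heat shock protein, was 1.95-fold lower.

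Kruppel-like factors had the lowest list median, -0.39, with 9 of 10 measured genes lower. KLF13 was at 8.80 with dihydroberberine and 9.81 with sunitinib, 2.01-fold lower, and 1.93-fold once the medians of the pair were set equal. KLF11 was at least 2.05-fold lower and KLF3 2.12-fold lower on the probe set used, but their probe sets disagreed in sign, between -1.33 and 0.10 and between -1.09 and 1.80, and averaging the probe sets per gene gave a list median of -0.07. ID2, an inhibitor of helix-loop-helix factors induced by BMP, was at 9.91 with dihydroberberine, 11.44 with sunitinib, 11.19 with the combination and 10.32 untreated. Both arrays that received sunitinib were high in ID2, which was 2.9-fold lower in the pair. SMAD6, the inhibitor of BMP signalling, was 2.8-fold lower on the probe set used, with 3 probe sets between -1.49 and 0.24. The BMP list had 6 of 8 lower and a median of -0.33. PER2, a repressor of the circadian clock, was at 6.42, 7.96, 7.13 and 8.14, at least 2.3-fold lower, while the 11 measured clock genes had a median of 0.24, which was -0.17 without the probe sets named _x_at or _s_at. MTF1, the zinc-sensing factor, was 2.36-fold lower with 4 probe sets between -1.24 and -0.17, and its list of 9 had a median of -0.25.

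Kinases of AMPK, the sensor that berberine-type alkaloids are known to act on, differed little. Of 15 measured genes 6 were higher and 9 lower, and the median was -0.04. PRKAA1, a catalytic subunit, was 2.61-fold higher on the probe set used, at 8.69 with dihydroberberine and 7.31 with sunitinib, but its other probe set gave 0.06. SIK2, a salt-inducible kinase, was at 8.19, 9.77, 9.11 and 10.98, 2.98-fold lower, with 5 probe sets between -1.58 and 0.50. The 36 measured genes of respiratory complex I had a median of -0.03. NDUFC2 was the single one of them past 2-fold, at 10.58, 11.96, 11.91 and 12.08, 2.6-fold lower.

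Survival genes went both ways. MCL1, which restrains apoptosis, was 1.9-fold higher, at 13.09 with dihydroberberine, 12.16 with sunitinib, 13.25 with the combination and 12.05 untreated, with 6 probe sets between 0.06 and 1.35. BCL2 was 2.3-fold lower with 4 probe sets between -1.20 and 0.10, and CASP2, an initiator caspase, was 2.1-fold lower, or 1.94-fold with probe sets averaged. Of 18 measured genes 10 were higher and 8 lower, and the median was 0.18. Housekeeping sets were level, as shown by 32 cytosolic ribosomal protein genes between -0.13 and 0.27 and by 27 proteasome genes between -0.40 and 0.29. The 19 tRNA synthetase genes and 9 serine and one-carbon enzyme genes had none at 1.5-fold.

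**Figure D3:**
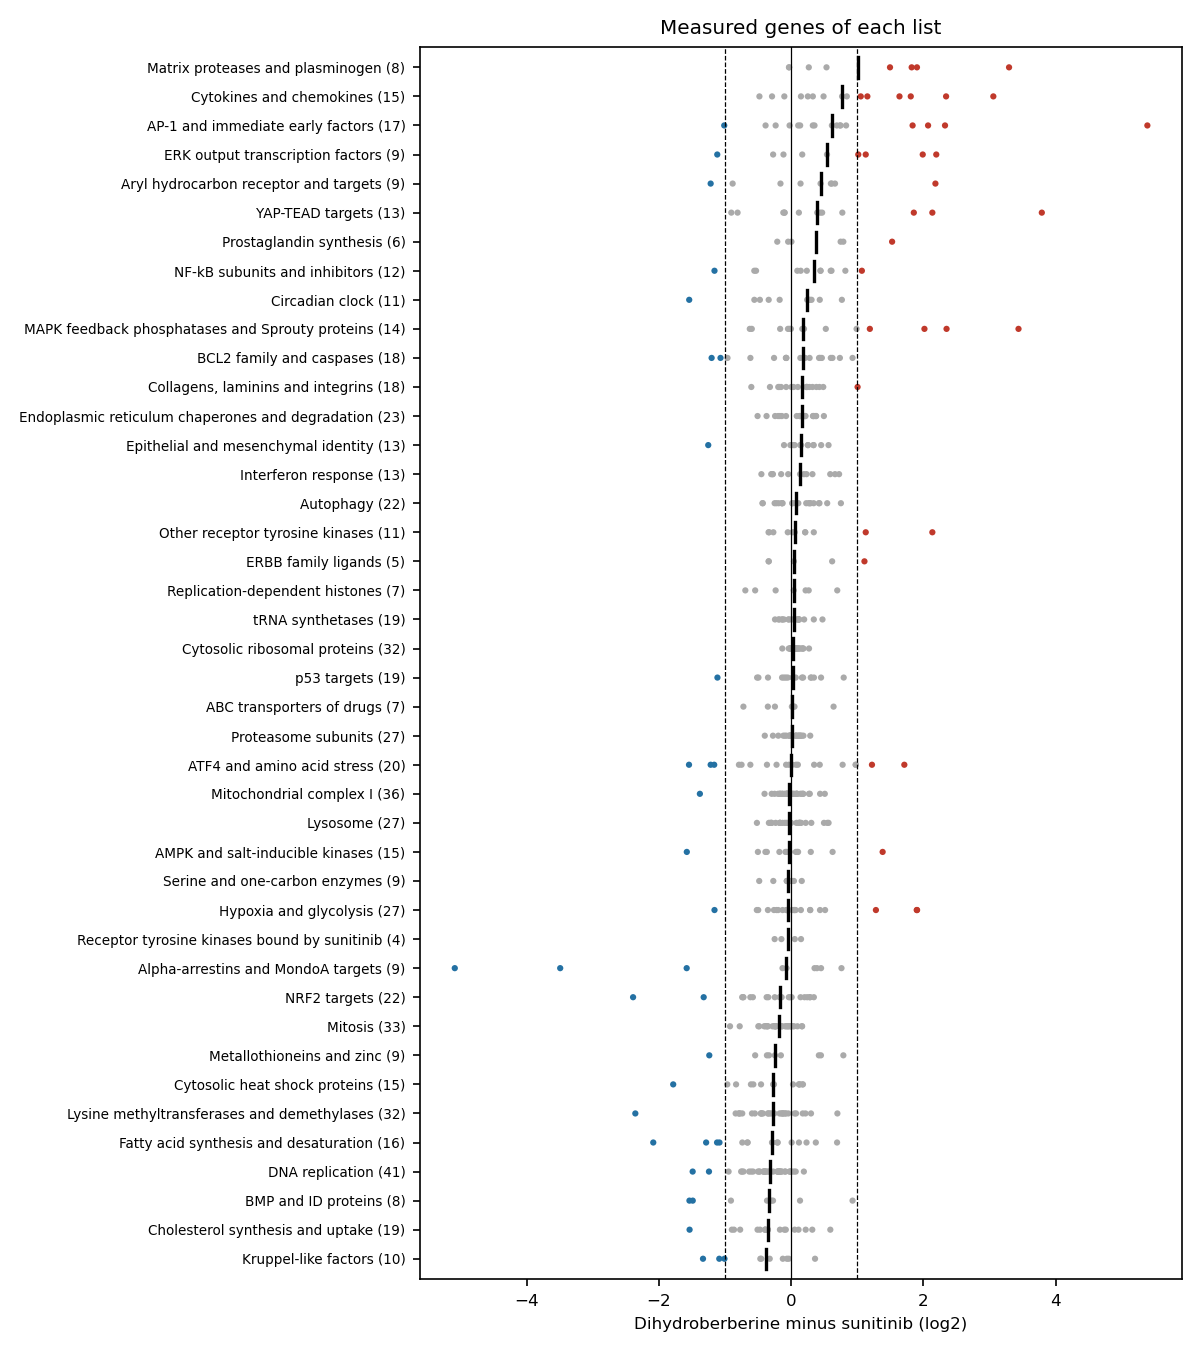
Log2 difference, dihydroberberine minus sunitinib (x axis), of every measured gene in 42 lists, sorted by list median (black bar); points past the dashed 2-fold lines are red where higher and blue where lower, and the number of measured genes is in parentheses. The 3 lists at the top have medians of at least 1.5-fold here, which holds for the cytokine list alone over genes with both arrays at the floor, at 0.77, and for none with dim genes included; the ribosomal and proteasome genes sit near 0.

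The untreated array placed the levels of the pair. Among the 162 higher genes the untreated level lay between the pair for 134, below both for 21 and above both for 7, and it was nearer to sunitinib for 111. Among the 310 lower genes it lay between the pair for 179, above both for 129 and below both for 2, and it was nearer to sunitinib for 294. Over all genes the untreated level was nearer to sunitinib for 62.8%. It lay between the pair for 33.5% of all genes, above both for 37.3% and below both for 29.1%. Genes past 2-fold were chosen for a wide gap in the pair, which leaves more room for another level between. The 129 genes with untreated above both are 41.6% of the lower genes, close to the share of all genes. The median level of the lower genes was 7.81 with dihydroberberine, 9.10 with sunitinib, 8.87 with the combination and 8.99 untreated. The median level of the higher genes was 9.72, 8.28, 8.96 and 8.65 in the same order.

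The combination stood differently for the 2 directions. For 89 of the 162 higher genes it was nearer to dihydroberberine and for 73 nearer to sunitinib, and it lay between the pair for 144. For 284 of the 310 lower genes it was nearer to sunitinib, and for 26 nearer to dihydroberberine. Over all genes the combination was nearer to sunitinib for 60.7%. It lay between the pair for 39.3% of all genes, above both for 30.2% and below both for 30.5%. For the lower genes it lay above both for 32.3%, close to the share of all genes. TXNIP, INSIG1 and FADS2 were among the lower genes that stayed nearer to dihydroberberine in the combination. Whether the high levels in the combination of many lower genes come from the added agent or from the dihydroberberine array itself cannot be told apart with 1 array each.

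**Figure D4:**
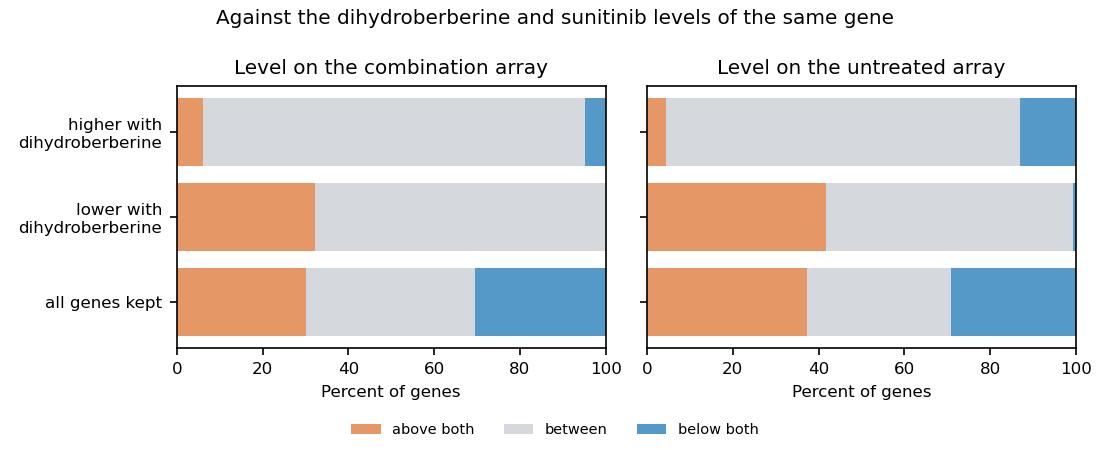
Percent of genes (x axis) whose level on the combination array (left) or the untreated array (right) lay above both, between or below both levels of the compared pair, for the 162 higher genes, the 310 lower genes and all 10821 genes kept. The combination lay between the pair for 144 higher and 210 lower genes and below both for 0 lower genes. It lay between the pair for 39.3% of all genes kept.

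Read against untreated cells, the difference lay with dihydroberberine in 52 of the higher and 198 of the lower genes, where dihydroberberine was at least 2-fold from untreated and sunitinib within 1.5-fold. EGR1, MMP1, GADD45B, DUSP1, PTX3 and TIPARP were among the 52, and CUL3, MAT2A, SETD1B and GPAM among the 198. The pair lay on opposite sides of untreated cells, each by at least 1.5-fold, for 31 higher genes, among them CCN1, DUSP5, CXCL8, IER3, AXL and PAPPA. Among the lower genes this held for 6, namely TXNIP, ARRDC4, KCTD15, RAB40B, MTURN and ARMC8. The difference lay with sunitinib, at least 2-fold from untreated with dihydroberberine within 1.5-fold, for 13 higher genes, among them IL6, PTGER4, NRG1 and LAMB1, and for 3 lower genes, ID2, CHGA and FAM13B. VWA5A had the highest difference of the 13, at 9.80 with dihydroberberine, 7.96 with sunitinib, 8.39 with the combination and 9.84 untreated. VWA5A, KCTD15, RAB40B, MTURN, ARMC8, CHGA and FAM13B are named here after their values were seen. Both agents lay on the same side of untreated cells, each by at least 1.5-fold, for 3 higher and 14 lower genes. SIK2, NUPR1, INSIG1 and FADS2 were among the 14. The remaining 63 higher and 89 lower genes fell in none of these classes. All of these classes share the untreated array, and their shares over all genes were not counted. The genes were chosen for a wide gap in the pair, and untreated was nearer to sunitinib for 62.8% of all genes. The class counts therefore describe levels and are not a trait particular to these genes.

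The remaining genes named as highest had levels of the same order. GPRC5A, an orphan receptor induced by retinoic acid, was at 12.22 with dihydroberberine, 10.17 with sunitinib, 11.38 with the combination and 11.29 untreated, 4.14-fold higher. LY6K, a surface protein anchored by glycosylphosphatidylinositol, was at 9.0, 7.0, 7.94 and 8.28, 3.99-fold higher on its 1 probe set at the floor. Its sunitinib signal lay close to that array's background median of 6.99, and it was not kept with probe sets averaged. DAW1, a factor for assembly of axonemal dynein, was at 10.59, 8.61, 10.11 and 9.23, 3.94-fold higher. STON1, an endocytic adaptor, and MYPN, a sarcomere protein, lay under the floor with sunitinib and were at least 3.03-fold and 2.82-fold higher.

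**Figure D5:**
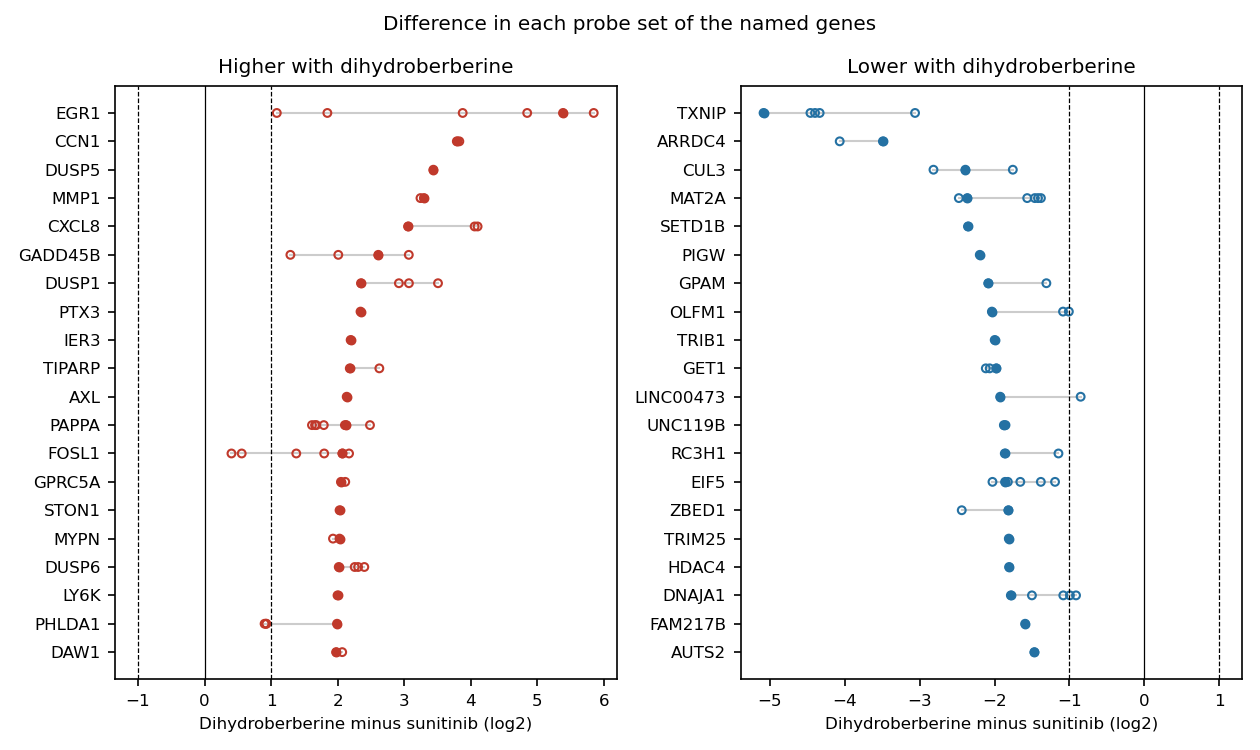
Log2 difference, dihydroberberine minus sunitinib (x axis), of every probe set at the floor for the 20 genes named as highest (left) and the 20 named as lowest (right); the filled circle is the probe set used for the gene, open circles are its others and the dashed lines mark 2-fold. Genes were named here only where all their probe sets at the floor shared a sign, so that agreement was set by the rule. Past 2-fold, 6 higher and 47 lower genes had probe sets of both signs and could not be named. The probe sets of EGR1 run from 1.08 to 5.85.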

How the data were processed

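Expression was measured on 4 arrays of A549 RNA, 1 per condition, and groups were taken from the sample titles. The deposited values are log2 signals per probe set, a scale read from their range of 3.01 to 15.4. The labels' protocols describe GeneChip 3′ IVT Express labelling, while the design text names an Agilent array and the label field Cy3; the probe set names are Affymetrix, and the values were treated as such. Per the submitters' processing notes the software was Affymetrix Expression Console. How it summarized and scaled the arrays is not given in the sources used here. Array medians ran from 6.73 to 6.76.

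Of 49293 gene probe sets 44988 had 1 gene symbol in a platform annotation, 1832 had several and 2473 were unnamed here. Through the gene identifier 44961 matched RefSeq and 0 symbols changed. Differences of log2 values were computed with Python 3.11.15, numpy 2.4.6 and pandas 2.3.3, and the counting was tested on simulated data. A fold with 1 array under the floor was computed against the floor and is printed with "at least". It is a bound against the floor and not against background. With no replicate, the spread between probe sets of 1 gene does not measure error between arrays. Named genes were the 15 highest and 15 lowest with both arrays at the floor and all probe sets of 1 sign, the 5 highest and 5 lowest with 1 array under it, and up to 5 per list of largest size. The members and the 42 lists were chosen with earlier results of these data known. Of 10 alternatives tried, 9 were planned and 1 was added after seeing the data.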

Additional observations from a re-analysis of the deposited data

Results flagged for a closer look

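Probe sets without a single gene name entered no comparison above. Of 2027 of them at the floor on either array, 24 (1.18%) were at least 2-fold higher with dihydroberberine than with sunitinib and 51 (2.52%) at least 2-fold lower, shares close to the 1.5% and 2.86% of named genes. The highest of them read 11.68 with dihydroberberine, 9.43 with sunitinib, 9.77 with the combination and 9.95 untreated. The lowest read 6.39, 8.31, 7.98 and 8.34 in the same order. These are single arrays with no replicate.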

How the results depend on the processing

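No paired analysis was possible because each condition had 1 array, and for the same reason no replicate could be left out. Without either array of the pair the comparison ends. Over 10 alternatives the genes at least 2-fold higher numbered 110 to 188, against 162, and those at least 2-fold lower 112 to 327, against 310. The count of lower genes changed by over 1.5 times under 2 of them, and both kept fewer genes than the 10821 of the main count. Averaging all probe sets of a gene, which keeps 8963 genes, gave 112, of which 100 were among the 310. The share of higher genes among those past 2-fold was then 50.7%, against 34.3%, and the cause was not tested. A floor at the 75th percentile, which keeps 6305 genes, gave 188. Setting the medians of the pair equal over the genes kept gave 188 higher and 255 lower, a share of 42.4%, with a shift of 0.06 in the median of all genes. Keeping only genes whose probe sets share a sign, the alternative chosen after seeing the data, left 156 and 263. Among list medians of at least 0.1 the sign turned for the circadian clock genes, at -0.17 without probe sets whose names end in _x_at or _s_at. In all 15 of 42 list medians turned sign in some alternative, the other 14 of them under 0.1 in size as first computed. Among these the alpha-arrestin list was at 0.14 over genes with both arrays at the floor and at -0.99 without those probe sets. The histone list was at -0.23 by the median difference of probe sets. Of the named genes 15 turned sign, 12 of which were under 2-fold, such as KLF7 at 0.30 with probe sets averaged, and 3 at least 2-fold. Of these 3, without the same probe sets, KLF11 was at 0.10, SIK2 at 0.50 and KLF3 at 0.19, and KLF3 was also at 0.40 as the mean and at 0.75 as the median difference of its probe sets. Of all genes named at 2-fold or more, 31 were under 2-fold in at least 1 alternative. Of those named as highest or lowest, RC3H1, TRIM25 and FAM217B were under 2-fold with the mean of probe sets and PHLDA1 with their median difference. With the mean of probe sets 37 of these 40 genes had a value, and HDAC4, LY6K and AUTS2 had none. Without probe sets named _x_at or _s_at 34 had a value.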

Other observations

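Interferon-stimulated genes went both ways, with 7 of 13 measured genes higher, 3 by at least 1.5-fold and none past 2-fold, and a median of 0.14. IRF9, a subunit of the interferon-activated factor ISGF3, was at 8.48 with dihydroberberine, 7.76 with sunitinib, 7.80 with the combination and 8.49 untreated, and both arrays that received sunitinib were the low ones. OAS1, an antiviral oligoadenylate synthetase, was 1.51-fold higher with dihydroberberine than with sunitinib. IFI44 was 1.58-fold higher.

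Autophagy genes had 14 of 22 measured genes higher and a median of 0.07, and lysosomal genes 11 of 27 higher and a median of -0.03, with none of either past 2-fold. WIPI1, a phosphoinositide-binding autophagy protein, was 1.69-fold higher, and SQSTM1, an autophagy receptor, 1.35-fold lower. The lysosomal protease genes CTSL and CTSD differed in opposite directions, 1.48-fold higher and 1.43-fold lower. Among 7 measured ABC transporters of drugs, ABCG2 was at 10.59 with dihydroberberine, 9.95 with sunitinib, 10.01 with the combination and 10.63 untreated, 1.56-fold higher, and ABCC2 was 1.65-fold lower. Of 7 measured replication-dependent histone genes, 4 were higher and 3 lower, and H2BC12 was 1.62-fold lower.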
